A study of Homo sapiens with 36 samples.

Results

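hsa-miR-335-5p is the mature 5′ arm of the MIR335 hairpin, which lies in an intron of the imprinted gene MEST on chromosome 7. It was chosen by name, with earlier results of line against control in these data known, and it is 1 of 509 miRNA names listed in 7 tables of small RNA sequencing. Each table covered 1 aneuploid human cell line together with its near diploid control. miR-335-5p had 1 row in every table, and the tables listed between 273 and 434 miRNAs. Here its level, its rank, its place in the genome and the miRNAs with the most similar levels are described. The values analysed were means over line and control together, so the level in a line cannot be set against the level in its control.

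The series held 36 small RNA libraries in 12 groups of 3. HCT116 is a near diploid colorectal carcinoma cell line, and RPE1 is a near diploid retinal pigment epithelium cell line immortalized with telomerase (hTERT). HCT116 5/4 and its HCT116 control were obtained from another laboratory, and in the other lines extra chromosomes were brought in by microcell-mediated transfer, in which small nuclei with single chromosomes are fused to a recipient cell, and an asterisk marks stable expression of the histone H2B tagged with GFP. The lines on HCT116 were HCT116 5/4 (tetrasomy of chromosome 5, with HCT116 as control), and HCT116 18/3 c2, HCT116* 3/3 c11 and HCT116* 8/3 c7 (trisomy of chromosome 18, 3 or 8), which all had the same HCT116* libraries as control. HCT116 18/3 c2 itself carries no H2B-GFP, so in its table the gain and the tag differ together. The lines on RPE1 were RPE1 5/3 12/3 (with RPE1 as control), RPE1* 21/3 (with RPE1* libraries 1 to 3) and RPE1* 7/3 (with RPE1* libraries 11 to 13). A letter c with a number marks a clone grown from a single cell. By the study's methods, chromosome 12 of RPE1 5/3 12/3 was gained spontaneously, and RPE1* 7/3 also gained chromosomes 9 and 12 in this way, so that line is not a model of chromosome 7 alone. All cells were grown in the same medium with fetal calf serum and without a treatment.

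MicroRNAs are short RNAs that guide Argonaute proteins to partly matching messenger RNAs, mainly through the seed, bases 2 to 8 of the mature strand, and so lower the amount or translation of those messages. The 2 arms of a hairpin give a 5p and a 3p strand, of which often only 1 is stable. MEST (mesoderm specific transcript) encodes a protein of the alpha/beta hydrolase fold and is transcribed mainly from the paternal chromosome, and a miRNA in its intron is made from the same primary transcript. miR-335-5p is known as a suppressor of invasion and metastasis in breast cancer, with SOX4 and tenascin C among its described targets.

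The hairpin and its arms are shown first, because every value below was counted from reads of the 5p strand. Sequences are those of RefSeq on GRCh38.p14, written 5′ to 3′. In the hairpin the capitals mark the 5p arm and then the 3p arm, and in the mature strands they mark the seed.
MIR335 hairpin: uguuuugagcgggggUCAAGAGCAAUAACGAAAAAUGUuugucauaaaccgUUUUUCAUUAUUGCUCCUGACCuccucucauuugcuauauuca
hsa-miR-335-5p: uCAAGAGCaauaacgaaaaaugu
hsa-miR-335-3p: uUUUUCAUuauugcuccugacc

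In build GRCh37 (hg19), to which the authors mapped, MIR335 lies on the plus strand of chromosome 7 from 130135952 to 130136045 and is 94 bases long. The 5p strand covers 130135967 to 130135989, and the 3p strand covers 130136003 to 130136024. MEST runs on the same strand from 130126012 to 130146306, and MIR335 begins 9940 bases after the start of the gene. GENCODE lists 17 transcripts of MEST, and in 13 of them MIR335 lies in the intron from 130135364 to 130136996, which is 1633 bases long. It lies in an exon of 0 transcripts. The hairpin sequence was found 1 time on chromosome 7, so reads of miR-335-5p have 1 known source there. Among 2370 mature names in RefSeq, 0 others carry the same seed, so miR-335-5p has no seed family. It is poor in G and C: 30.4% of its bases are G or C against a median of 50% over 416 listed miRNAs with a sequence, of which 11 (2.64%) were lower. The 3p strand had 0 rows, as did most 3p strands, since 333 of the 509 names end in 5p and 12 in 3p. Nothing can therefore be said of the balance of the arms.

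**Figure D1:**
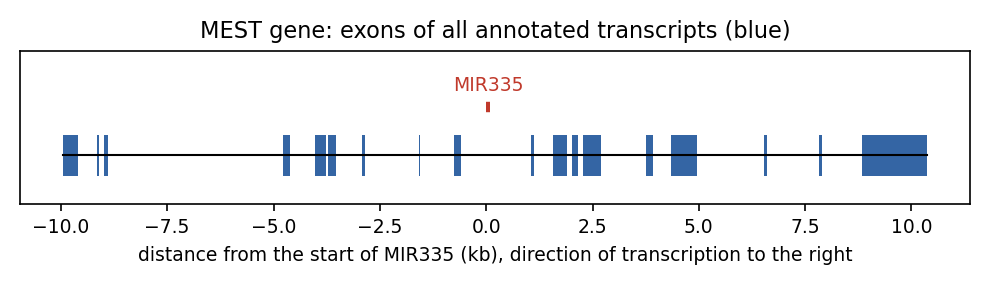
Map of the MEST gene on GRCh37, with distance from the start of MIR335 in kb on the x axis and the direction of transcription to the right. Blue boxes are exons of any of the 17 annotated transcripts, the line is the span of the gene, and the red bar is MIR335, which lies between exons, 9940 bases after the start of the gene.

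The unit of the tables is the authors' mean normalised read count of a miRNA over the 6 libraries of a table, 3 of the line and 3 of the control. As a mature miRNA is read from end to end by a single read, no correction for length was made. Whether different miRNAs were captured equally well was not tested, so comparisons between miRNAs are of reads. Each table was normalized separately. Levels were therefore also expressed in ppm, 1000000 times the mean of a miRNA divided by the sum of the means in its table. The sums ranged from 5556870 to 11221232. No spread between libraries and no depth of a library can be had from these means, so none of the differences below was tested.

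miR-335-5p was low in the HCT116 tables and moderately abundant in the RPE1 tables. In the table of HCT116 5/4 its mean normalised read count was 36.2, or 6.51 ppm. In that of HCT116 18/3 c2 it was 13.1, or 1.64 ppm. In that of HCT116* 3/3 c11 it was 15.5, or 1.73 ppm. These values, together with 16.8 or 2.15 ppm in HCT116* 8/3 c7, show that the table of HCT116 5/4 stood above the 3 tables that hold the HCT116* libraries. In RPE1 5/3 12/3 the mean normalised read count was 822, or 90.2 ppm. In RPE1* 7/3 it was 192, or 17.1 ppm. In RPE1* 21/3 it was 1215, or 151 ppm. The order of the levels was thus RPE1* 21/3, RPE1 5/3 12/3, RPE1* 7/3, HCT116 5/4, HCT116* 8/3 c7, HCT116* 3/3 c11 and HCT116 18/3 c2, by the authors' mean as by ppm. The means analysed carry no spread, so whether neighbours in this order differ was not tested. In bulk RNA, fewer cells with a miRNA and less of it in each cell cannot be told apart either.

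The means set limits on what any group can have reached. Since the 3 line and the 3 control libraries of a table weigh equally in its mean, neither group can average more than 2 times the mean, and at least 1 of them reached the mean. No group in the HCT116 tables can have averaged more than 72.3 normalised reads (HCT116 5/4), 26.1 (HCT116 18/3 c2), 30.9 (HCT116* 3/3 c11) or 33.7 (HCT116* 8/3 c7). In RPE1* 7/3 the limit for either group was 383.9, in RPE1 5/3 12/3 it was 1643.6 and in RPE1* 21/3 it was 2430.0. In the RPE1* 21/3 table at least 1 group averaged 1215 or more, which is at least 3.16-fold above the limit for either group in the RPE1* 7/3 table (4.41-fold in ppm). In the RPE1 5/3 12/3 table at least 1 group lay at least 2.14-fold above that limit (2.64-fold in ppm). The limits of RPE1* 21/3 and RPE1 5/3 12/3 overlapped, and so do those of the HCT116* tables, so the order of groups within these sets is not fixed. At least 1 group of RPE1* 7/3 lay at least 2.65-fold above the limit of HCT116 5/4, the highest of the HCT116 tables (1.31-fold in ppm).

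**Figure D2:**
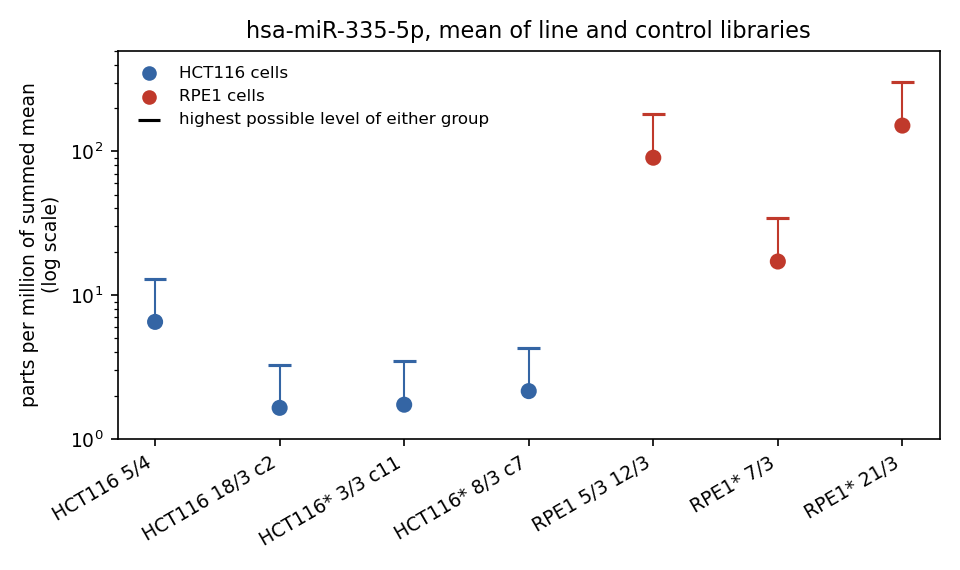
Level of hsa-miR-335-5p in the 7 tables in ppm of the summed mean, on a log axis. A point is the mean of 6 libraries (3 line, 3 control) and the bar above it marks the highest level that either group of 3 can have had. The RPE1 tables stand at 90.2, 17.1 and 151 ppm and the HCT116 tables between 1.64 and 6.51 ppm.

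The rank within a table does not depend on how the tables were scaled. miR-335-5p was the 68th most abundant of 273 miRNAs in RPE1* 21/3, the 87th of 297 in RPE1 5/3 12/3 and the 123rd of 403 in RPE1* 7/3. In HCT116 5/4 it ranked 182 of 358. In HCT116 18/3 c2 it ranked 261 of 409, and in HCT116* 8/3 c7 it ranked 252 of 434. In HCT116* 3/3 c11 it ranked 262 of 279. The tables list miRNAs down to different means, from 1.10 in RPE1* 7/3 to 11.9 in HCT116* 3/3 c11, so the share of miRNAs below miR-335-5p is not comparable between them.

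The neighbours in rank show how deep in the profile the miRNA lay. In RPE1* 21/3 it stood between miR-320b (1279.9 normalised reads) and miR-744-5p (1279.5) above, and miR-369-5p (1174.8) and miR-450a-5p (1167.1) below. In RPE1 5/3 12/3 its neighbours were miR-584-5p (835) and miR-452-5p (824) above, and miR-145-5p (801), a miRNA of smooth muscle and fibroblasts, and miR-136-5p (795) below. In RPE1* 7/3 they were miR-4286 (196) and miR-25-5p (194) above, and miR-139-5p (190.5) and miR-27b-5p (179) below. In HCT116 5/4 they were miR-424-5p and miR-2110 above and miR-422a and miR-642a-5p below, at 38.7 to 35.7 normalised reads. In the 3 tables with HCT116* the neighbours lay between 12.8 and 17.5 normalised reads: miR-4684-5p, miR-3918, miR-3074-5p and miR-29b-2-5p with HCT116 18/3 c2, miR-6511a-5p, miR-146a-5p, miR-624-5p and miR-511 with HCT116* 3/3 c11, and miR-374c-5p, miR-3131, miR-3929 and miR-146a-5p with HCT116* 8/3 c7. For scale, the oncogenic miR-21-5p was the most abundant miRNA in both RPE1* 21/3 and HCT116* 3/3 c11. It had 2859.8 times the normalised reads of miR-335-5p in the former and 284560.3 times in the latter. In RPE1* 7/3 the most abundant was miR-100-5p.

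Between the cell types, miR-335-5p was among the most different of the miRNAs listed in all 7 tables. Its median over the RPE1 tables was 90.2 ppm against 1.94 ppm over the HCT116 tables, a difference of 5.54 on the log2 scale or 46.5-fold. The lowest RPE1 table lay 2.63-fold above the highest HCT116 table, so the tables did not overlap. Of the 205 miRNAs listed in all 7 tables, 22 (10.7%), miR-335-5p among them, were higher in every RPE1 table than in every HCT116 table. Lower in every RPE1 table were 98 (47.8%). This split rests on the scale. After a scaling by the median of ratios over the 205 miRNAs, 43 were higher without overlap and 53 were lower, and the median difference of all miRNAs moved from -0.96 to 0.03 on the log2 scale. Relative to that median, miR-335-5p was higher in the RPE1 tables by 6.50 to 6.57 on the log2 scale under the 4 scales tried. It ranked 8 of 205 under each of them. miRNAs missing from any table have no rank here, among them 20 strands of the imprinted 14q32 cluster listed in no HCT116 table.

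Above it stood 7 miRNAs, which were picked out after their values were seen. miR-411-5p (7.83 on the log2 scale), miR-379-5p (7.65), miR-369-5p (6.90) and miR-382-5p (6.05) belong to the imprinted cluster at 14q32. miR-204-5p (7.15), a miRNA known for its abundance in pigment epithelium, was taken as a marker of the labelled cell type and had a median of 518 ppm in the RPE1 tables and 3.64 ppm in the HCT116 tables. miR-138-5p (7.12) and miR-30a-5p (6.29) made up the rest.

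**Figure D3:**
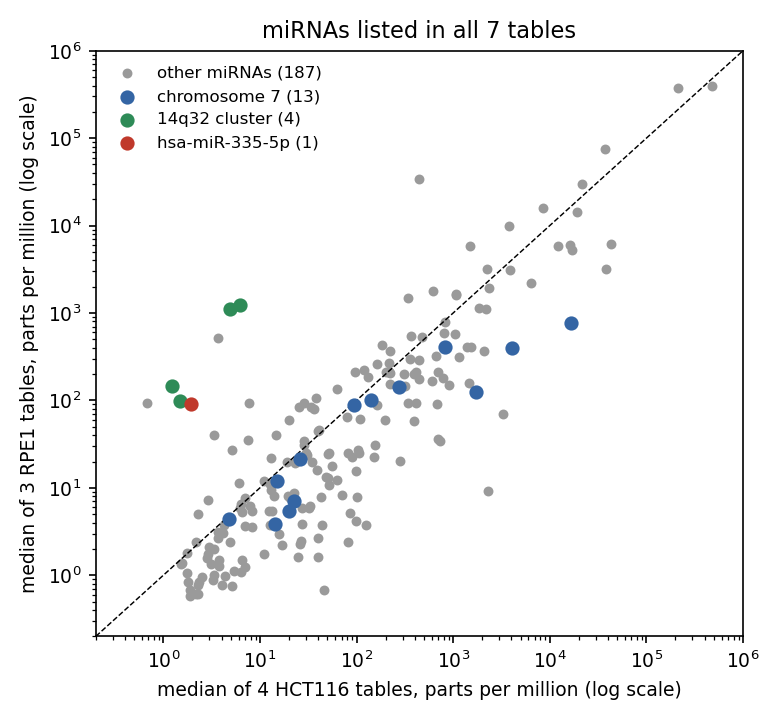
Median level over the 3 RPE1 tables (y axis) against the median over the 4 HCT116 tables (x axis), both in ppm on log axes, for the 205 miRNAs listed in all 7 tables. hsa-miR-335-5p (red) lies far above the dashed line of equal levels with the 14q32 miRNAs (green), and the other 13 miRNAs of chromosome 7 (blue) lie on or below it.

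The other miRNAs of chromosome 7 had no such excess in the RPE1 tables. The names of 26 listed miRNAs have all their loci on this chromosome, and 14 of them were listed in every table. The other 13 of these had lower median levels in the RPE1 tables than in the HCT116 tables in ppm, from -0.08 on the log2 scale for miR-671-5p to -4.42 for miR-183-5p, a miRNA of the sensory miR-183/96/182 cluster. That direction depends on the scale, since 11 of the 13 were lower by the authors' mean, 8 without the 10 most abundant miRNAs and 7 by the median of ratios. Against the median of all miRNAs, 7 of the 13 were lower in ppm and 8 under the other scales, so they lay on both sides of it, while miR-335-5p lay above it under all 4. By rank among the listed chromosome 7 miRNAs, miR-335-5p was 4 of 14 in RPE1* 21/3, 8 of 16 in RPE1 5/3 12/3 and 11 of 20 in RPE1* 7/3. In the HCT116 tables it was 16 of 20 (HCT116 5/4), 19 of 21 (HCT116 18/3 c2), 18 of 18 (HCT116* 3/3 c11) and 18 of 23 (HCT116* 8/3 c7). Among miRNA genes of the RefSeq sequences used, MIR29A and MIR29B1 lie 381 kb after MIR335 on GRCh38, and MIR96 and MIR182 lie 721 and 726 kb before it, all on the other strand.

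The table of RPE1* 7/3, the line with the gained copy of chromosome 7, held the lowest level of miR-335-5p among the RPE1 tables. It was 17.1 ppm against 151 ppm in the table of RPE1* 21/3, which is 8.82-fold lower (-3.14 on the log2 scale). Over the 269 miRNAs listed in both tables the median was -0.37, with the 5th percentile at -2.38 and the 95th at 1.55. Relative to the median, miR-335-5p was lower by 2.77 on the log2 scale. This value cannot differ between the scales, because each changes all miRNAs of a table by the same factor. Of the 269, 7 (2.60%) were lower still: miR-4488, miR-143-5p, miR-1246, miR-2355-5p, miR-145-5p, miR-216a-5p and miR-3065-5p, none of which is on chromosome 7. Against the table of RPE1 5/3 12/3 the level was 5.27-fold lower (-2.40), with a median of -0.23 over 291 miRNAs and 13 (4.47%) lower still. The 5th percentile of that ratio was -2.30 and the 95th 1.59. The tables of RPE1* 21/3 and RPE1 5/3 12/3 differed less: the level in the latter over the former was -0.74 for miR-335-5p, with a median of -0.07, and 25 of 264 miRNAs (9.47%) lay lower. The smaller difference was not particular to miR-335-5p. Over all miRNAs of this pair the 5th percentile was -0.89 and the 95th 0.78, a narrower spread than in both ratios of RPE1* 7/3. The RPE1* 7/3 and RPE1* 21/3 tables hold different control libraries. By the study's methods, sequencing batch effects were modelled through paired replicates for RPE1* 21/3 and RPE1 5/3 12/3, but not for RPE1* 7/3. The part of a batch in these differences was not tested, and it cannot be told apart from the line or its controls. Neither group of the RPE1* 7/3 table can have averaged more than 383.9 normalised reads (34.2 ppm). Line and controls thus both lay below the mean of the RPE1* 21/3 table, 1215 normalised reads or 151 ppm. Whether the line or its controls had the lower level cannot be told from means over both.

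Other miRNAs of chromosome 7 did not stand so low, and neither did most miRNAs, as only 7 of all 269 (2.60%) stood lower. Of the other 13 listed in both RPE1* tables, 4 lay below the median of all miRNAs in the ratio of RPE1* 7/3 over RPE1* 21/3, and 9 above it. The lowest of them was miR-106b-5p, of the MCM7 intron, at -0.995 in ppm, against -3.14 for miR-335-5p. The 25 miRNAs of the imprinted 14q32 cluster listed in both tables ran from -1.98 to 1.35 in ppm with a median of -0.15, and 11 of them lay below the median of all miRNAs.

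**Figure D4:**
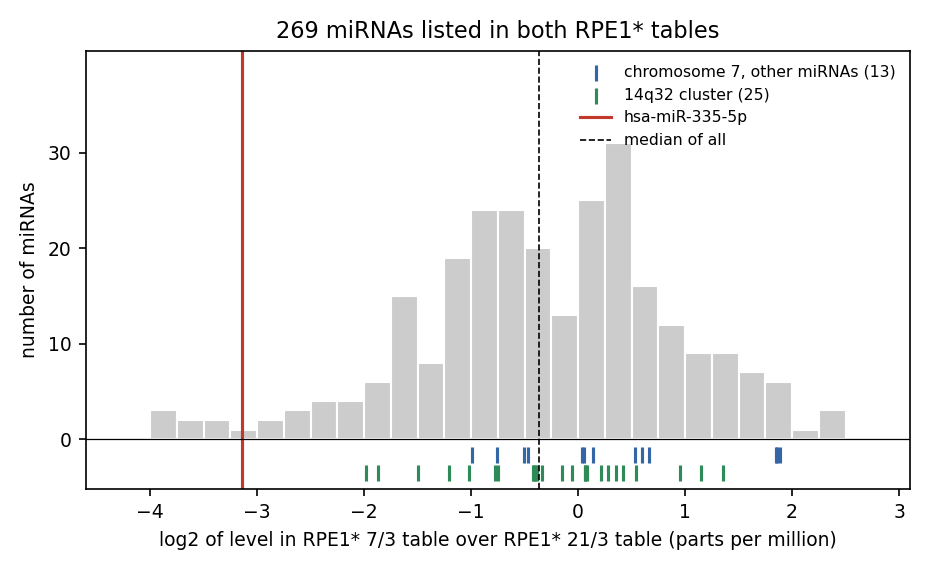
Number of miRNAs (y axis) by the log2 ratio of their ppm level in the RPE1* 7/3 table over the RPE1* 21/3 table (x axis), for 269 miRNAs listed in both. The red line is hsa-miR-335-5p at -3.14, the dashed line the median of all at -0.37, and the ticks under the axis are the other 13 miRNAs of chromosome 7 (blue) and 25 of the 14q32 cluster (green), all to the right of the red line.

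The 3 tables that share the HCT116* libraries gave nearly the same level. As the same control libraries enter each mean, part of this closeness is built in, and it does not show similar levels in the lines. HCT116* 3/3 c11 over HCT116 18/3 c2 was 0.07 on the log2 scale, with a median of 0.14 over 279 miRNAs. HCT116* 8/3 c7 over HCT116 18/3 c2 was 0.39, with a median of 0.20 over 400 miRNAs and quartiles of -0.03 and 0.40. HCT116* 8/3 c7 over HCT116* 3/3 c11 was 0.31, above the upper quartile of 0.24 over 279 miRNAs. HCT116 5/4, whose table holds no library of the others, lay 3.96-fold above HCT116 18/3 c2 (1.99), where 19 of 343 miRNAs (5.54%) were higher still, 3.77-fold above HCT116* 3/3 c11 and 3.03-fold above HCT116* 8/3 c7. HCT116 5/4 and its control came from another laboratory. Of the HCT116 tables, only this one had sequencing batch effects modelled through paired replicates. The part of either in the higher level was not tested.

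The miRNAs whose levels were most similar to those of miR-335-5p were sought among the 172 with a mean of at least 10 in all 7 tables, by Pearson's r of log2 ppm over the 7 tables. The 5 highest were miR-450b-5p (r = 0.98), miR-450a-5p (0.96), miR-3613-5p (0.96), miR-1260a (0.95) and miR-181a-5p (0.93). The 7 points share libraries in 3 tables and fall into 2 cell types, and 12 of the 172 miRNAs (6.98%) had an r over 0.9, so these are descriptions. The list depends on the scale. Under each of the other 3 scales 2 of these 5 stayed among the 5 highest, and miR-125a-5p was then the most similar without the 10 most abundant miRNAs (r = 0.99) and by the median of ratios (0.98). miR-450b-5p was among the 5 highest under all 4 scales. miR-450a-5p and miR-450b-5p come from the X chromosome, from a cluster with miR-424 and miR-503. Their mature strands are shown with the seed in capitals, to be set beside that of miR-335-5p, with which they share only 2 and 1 of the 7 seed positions.
hsa-miR-450a-5p: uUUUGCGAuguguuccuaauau
hsa-miR-450b-5p: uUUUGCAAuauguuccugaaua

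miR-450b-5p had 11.4 ppm in HCT116 5/4, 2.90 to 3.39 ppm in the 3 tables with HCT116*, 40.2 ppm in RPE1 5/3 12/3, 26.6 ppm in RPE1* 7/3 and 62.5 ppm in RPE1* 21/3. It thus had the same order of cell types and the same raised level in HCT116 5/4, with a smaller drop in RPE1* 7/3. As miR-450b-5p was picked for its high r over these same tables, the shared features are no separate evidence of likeness. miR-450a-5p had 33.3 ppm in HCT116 5/4, 6.82 to 8.73 ppm in the tables with HCT116*, and 93.4, 65.2 and 145 ppm in the RPE1 tables in the same order. The highest r on chromosome 7 was that of miR-29a-5p, at 0.12 among 13 compared. Low values were common among all 172 miRNAs, with a median r of -0.61 and 43 (25%) under -0.9.

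Ratios of 2 miRNAs within a table are free of the scaling of that table. The mean of miR-335-5p divided by that of miR-450a-5p was 0.195 in HCT116 5/4, 0.315 in HCT116* 8/3 c7, 0.198 in HCT116* 3/3 c11 and 0.241 in HCT116 18/3 c2. It was 0.966 in RPE1 5/3 12/3 and 1.04 in RPE1* 21/3, but 0.262 in RPE1* 7/3, within the range of the HCT116 tables. The ratio to miR-450b-5p was 2.24 in RPE1 5/3 12/3 and 2.41 in RPE1* 21/3, but 0.644 in RPE1* 7/3, just above the HCT116 tables (0.509 to 0.638). Relative to the imprinted miR-369-5p it was 0.790 in RPE1 5/3 12/3, 1.03 in RPE1* 21/3 and 0.111 in RPE1* 7/3, while the HCT116 tables had 1.23 to 6.197. From RPE1* 21/3 to RPE1* 7/3 the ratio dropped 3.75-fold against miR-450b-5p, 3.97-fold against miR-450a-5p, 9.33-fold against miR-369-5p and 7.94-fold against miR-411-5p. Each drop follows from the ratios between these tables given above, where 261 of 269 miRNAs stood above miR-335-5p. It is no separate evidence of the low level.

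**Figure D5:**
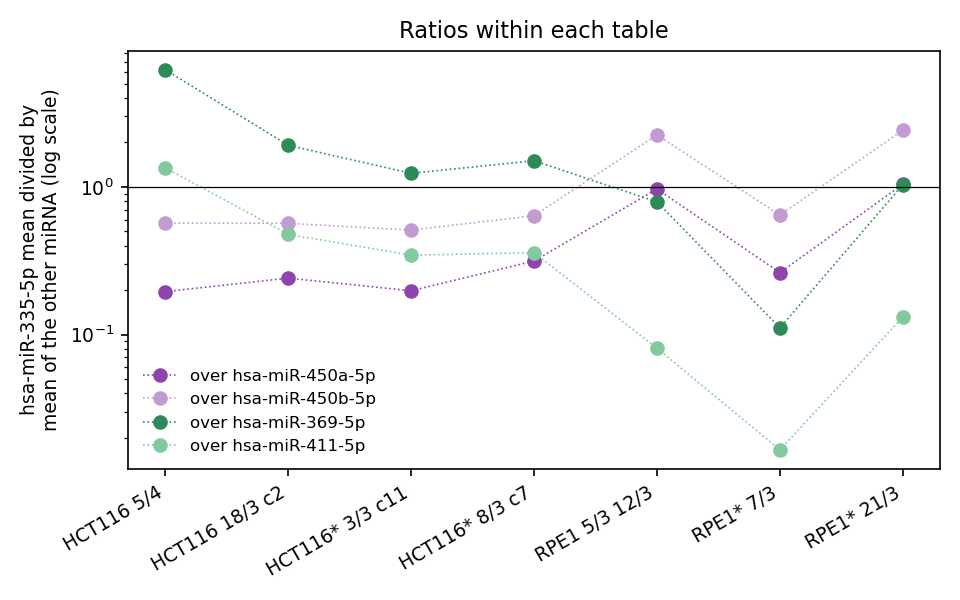
Mean of hsa-miR-335-5p divided by the mean of 4 other miRNAs within each of the 7 tables, on a log axis. The dotted lines join the points of 1 ratio and have no meaning between tables. All 4 ratios are lower in RPE1* 7/3 than in the other RPE1 tables, for miR-450a-5p at 0.262 against 0.966 and 1.04.

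Other miRNAs of imprinted loci were set beside miR-335-5p. Of 46 names of the 14q32 cluster at DLK1-MEG3, whose miRNAs are made from the maternal chromosome, 28 were listed, as 29 strands. Of these strands 25 were listed in all RPE1 tables, 4 in all HCT116 tables and 20 in none of the HCT116 tables. The same shares were not counted over all 509 names, so these counts are only a description. The 4 in every table (miR-369-5p, miR-379-5p, miR-382-5p and miR-411-5p) were all higher in every RPE1 table, with a median difference of 7.27 on the log2 scale against 5.54 for miR-335-5p. Over all 205 miRNAs listed in every table, 22 (10.7%) were higher in this way in ppm. miR-483-5p of IGF2 was listed in the 4 HCT116 tables, at 4.22 to 6.12 ppm, and in 0 RPE1 tables, and miR-675-5p of H19 was listed in 3 HCT116 tables and 0 RPE1 tables. miR-296-5p of the GNAS locus was listed in the 3 RPE1 tables only, at 0.329 to 1.33 ppm, and miR-298 was in none. miRNAs that a table does not list may have been removed by a filter, so an unlisted miRNA has no level here and no direction can be given for these.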

How the data were processed

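Total RNA with small RNAs was sequenced in 36 libraries. The authors removed adapters with cutadapt, mapped reads to hg19 and counted mature miRNAs with mirdeep2, running each line with its control, and then used DESeq2 (version not given in the sources used here). Replicate pairs entered the authors' own test for RPE1* 21/3, for HCT116 5/4 and for RPE1 5/3 12/3, to allow for sequencing batch effects. Each deposited table holds a mean signal, the average over 6 libraries of counts that the authors scaled by size factors. The other deposited columns (log2 fold change of line against control, its standard error, test score, p-value and adjusted p-value) are the authors' own comparisons and were not used. As no value of a single library was used (0 such columns), the count test planned for line against control was not run, and depth per library is unknown.

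Means were scaled to ppm of the table's sum, with 3 other scales tried: the authors' mean, ppm without the 10 most abundant miRNAs, and the median of ratios over 205 miRNAs. The scaling and the correlation were tested on simulated data. Of 509 names, 471 were placed on 1 chromosome by RefSeq and GENCODE together. Genome positions are from GENCODE on GRCh37. Python 3.11.15, numpy 2.4.6, pandas 2.3.3 and matplotlib 3.10.9 were used.

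The miRNA and the lists were chosen with earlier results of these data known. Named were miR-335, miRNAs with all loci on chromosome 7, the 5 most similar miRNAs with a mean of at least 10, the 2 neighbours on each side in rank, and miRNAs of other imprinted loci. The comparisons of RPE1 with HCT116 tables and of RPE1* 7/3 with RPE1* 21/3 were added after seeing the data, with their alternatives.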

Additional observations from a re-analysis of the deposited data

How the results depend on the processing

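Of 56 alternative values, 46 stayed within 1.5-fold of the value given and 10 moved further. The 46 include the ranks among miRNAs with a mean of at least 10. Those ranks could not move, because miR-335-5p had a mean above 10 in every table. Of the 10 that moved, some are counts, which have no direction, and the log2 values kept theirs. The level in the RPE1* 7/3 table, as log2 against the mean of the tables, was 0.79 in ppm and 1.52 by the median of ratios. The log2 difference of RPE1 over HCT116 tables was 6.30 without the 10 most abundant miRNAs and 6.54 by the median of ratios, and it was 5.71 without the table of HCT116 5/4 and 5.96 without that of RPE1* 7/3. The miRNAs higher in every RPE1 table numbered 37 and 43 under the same 2 scales, against 22 in ppm and 30 by the authors' mean. The RPE1* 7/3 over RPE1* 21/3 ratio ran from -3.14 to -2.66. Of the 5 most similar miRNAs, 3 stayed among the 5 with Spearman's rho and with a mean of at least 100, and 2 with each of the other scales, so that list depends on the setting. HCT116* 3/3 c11 over HCT116 18/3 c2 was 0.07 in ppm, but -0.09 without the 10 most abundant and -0.01 by the median of ratios. Its sign thus changed, although it stayed within 1.5-fold.

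No paired analysis was possible because the tables hold no values of single libraries. For the same reason other normalizations of counts, a filter on low counts and leaving out single libraries were not run, and no value here has an error.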
